A study of Mus musculus with 10 samples.

Results

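The comparison described here set spermatocytes named dSC (the deposited name of the diplotene population) against those named pSC (the mid and late pachytene population) in mouse testis nuclei. Its members were the genes of these 2 columns of a pair of matrices, 1 for RNA and 1 for accessible chromatin, that hold 1 pooled value per gene for each of 13 cell populations. Of 28125 genes in the RNA matrix, 13845 had a mean of at least 0.05 UMIs per 10000 over the pair and were compared. Of 30670 genes in the accessibility matrix, 30608 nuclear genes had signal in at least 1 of the 2 populations, and 13834 genes were compared in both. Behind the RNA values stood 5055 pSC and 4145 dSC cells of 45250. Chromatin data were at hand for 4523 and 3029 cells with these RNA names. Which cells were pooled into the accessibility columns is not given in the sources used here.

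Nuclei came from whole testes of wild-type mice at 11, 17 and 25 days post-partum (dpp), and from 8-week-old mice of the genotypes Cre/+ and Nfya-CKO. Both of the latter carry Stra8-Cre, a Cre that acts in germ cells from the spermatogonial stage on, and Nfya-CKO mice are also homozygous for a floxed Nfya allele (Nfya fl/fl), a design meant to remove Nfya, a subunit of the CCAAT-binding factor NF-Y, from germ cells only. Both assays were run on the same nuclei, although not every cell kept for RNA had a chromatin name, and each group was 1 library for either assay. The matrices pool all groups, so that no gene value has a replicate error and none can be computed without 1 library. Differences are therefore given by their size alone, as rose (at least 2-fold higher RNA in dSC) or fell (at least 2-fold lower), after 0.1 was added to both levels.

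In the pachytene stage of meiotic prophase I, homologous chromosomes are fully synapsed, crossovers form, and the largely unpaired X and Y chromosomes are silenced within the XY body. In diplotene the synaptonemal complex comes apart and homologs stay joined at their crossovers until the cell enters the first division, driven by CDK1 with cyclins. Spermatocytes also transcribe genes whose products serve only later, when haploid round spermatids build an acrosome and a tail and replace histones by transition proteins and protamines.

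Sequences just upstream of the start are shown for 3 genes that rose and 2 that fell, since they stand for the spermatid genes and for the tubulin pair described further on. Each is the 200 bases before the RefSeq start of the gene in GRCm38.p6, the build named mm10 in the labels, written 5′ to 3′ on the strand of the gene, with capitals for letters that match a searched motif. Acrv1, an acrosomal protein gene, lies at chr9:36693020-36693219 (+). Hils1, a spermatid linker histone gene, lies at chr11:94967393-94967592 (+). Prm2, a protamine gene, lies at chr16:10792106-10792305 (-). Tuba3a, an alpha tubulin gene, lies at chr6:125286082-125286281 (-), and its near copy Tuba3b at chr6:145615763-145615962 (+).
Acrv1: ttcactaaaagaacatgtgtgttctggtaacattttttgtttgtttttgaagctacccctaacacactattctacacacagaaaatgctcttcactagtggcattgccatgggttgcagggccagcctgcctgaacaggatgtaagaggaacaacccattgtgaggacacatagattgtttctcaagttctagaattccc
Hils1: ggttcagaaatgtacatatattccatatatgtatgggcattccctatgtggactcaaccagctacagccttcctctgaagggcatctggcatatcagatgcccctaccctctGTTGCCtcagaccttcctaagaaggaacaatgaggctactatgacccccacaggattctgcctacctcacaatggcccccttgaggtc
Prm2: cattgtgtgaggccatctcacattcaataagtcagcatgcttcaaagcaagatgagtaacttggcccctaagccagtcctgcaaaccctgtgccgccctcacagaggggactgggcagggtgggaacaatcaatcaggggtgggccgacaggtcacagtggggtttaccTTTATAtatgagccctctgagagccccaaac
Tuba3a: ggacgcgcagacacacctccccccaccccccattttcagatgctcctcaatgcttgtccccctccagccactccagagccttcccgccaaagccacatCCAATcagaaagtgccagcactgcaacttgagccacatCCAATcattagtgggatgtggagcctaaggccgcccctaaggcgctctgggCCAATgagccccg
Tuba3b: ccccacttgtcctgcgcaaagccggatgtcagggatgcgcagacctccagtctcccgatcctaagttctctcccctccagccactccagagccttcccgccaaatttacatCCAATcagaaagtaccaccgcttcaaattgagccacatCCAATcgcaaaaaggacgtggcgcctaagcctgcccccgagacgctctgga
Searched on both strands were the CCAAT box (CCAAT), the CRE (TGACGTCA) and its core TGACG, the E-box CACGTG, the RFX site GTTGCC, the A-MYB motif AACNGNC and the TATA box (TATAAA). The CRE contains that core. Tuba3a held CCAAT at 102, 64 and 13 bases before the start, and Tuba3b at 89 and 51. The upstream 2 were 38 bases apart in both. Hils1 held GTTGCC at 88 bases before the start. Prm2 held TATAAA on the other strand, read as TTTATA, at 31 bases before the start. The window of Acrv1 held none of these letters. Among 27025 RefSeq promoters in a window of this length, CCAAT occurred in 30%, GTTGCC in 8.76%, TATAAA in 10.6%, AACNGNC in 22.8%, TGACG in 15.8%, CACGTG in 5.28% and TGACGTCA in 1.55%, so that a match is a description of the letters only.

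The cells behind both columns differed in origin and depth. Of pSC cells, 3575 (70.7%) came from 25 dpp, 1411 (27.9%) from Cre/+ and 63 from 17 dpp. Of dSC cells, 2193 (52.9%) came from Cre/+, 1796 (43.3%) from 25 dpp, 98 and 51 from 17 and 11 dpp, and 4 from Nfya-CKO. No library was given for 6 pSC and 3 dSC cells. The pSC cells made up 2 clusters that split by library, cluster 3 with 95.7% of its 3720 cells from 25 dpp and cluster 15 with 98.7% of its 1335 from Cre/+, whereas both dSC clusters held cells of either library (39.2 and 50% from 25 dpp). Within a library, pSC is therefore largely another cluster at 25 dpp than in Cre/+. Age and genotype, which both differ between these libraries, therefore cannot be told apart from population in the pooled values. The median was 6969 UMIs and 2751 genes per cell in pSC against 3670 UMIs and 1726 genes in dSC. Within Cre/+ the medians were 13985 against 3128 UMIs, and within 25 dpp 5850 against 4431.5. Totals of 48075153 and 19878974 UMIs stand behind the columns, so that a level of 0.05 rests on about 240 UMIs in pSC and 99.4 in dSC.

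Libraries also shared cell barcodes, the numbers that mark a cell. In the RNA table the Cre/+ and Nfya-CKO libraries had 3813 barcodes in common, out of 11991 and 5152 cells, and the 3 wild-type libraries had 621 to 853 in common per pair, whereas no pair of an 8-week-old and a wild-type library shared more than 19. Of Cre/+ pSC cells, 1110 of 1411 (78.7%) had a barcode also found in Nfya-CKO, each time in a cell named soma_CKO (the somatic population of Nfya-CKO) and each time with more UMIs in pSC (medians of 16778 and 1201). Of Cre/+ dSC cells, 535 of 2193 (24.4%) had a barcode found in another library, 503 of them in a soma_CKO cell (medians of 9588 and 890 UMIs) and 31 in a spermatogonium of Nfya-CKO with more UMIs (1737 and 14997). At 25 dpp 2.15% of pSC and 1.95% of dSC cells were shared. Shared cells held 48.6% of the UMIs of pSC and 29.2% of those of dSC. The gene matrices cannot be recomputed without them, and their part in the gene values was not tested.

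A second name, taken from the chromatin of the same nuclei, was available for 4523 pSC and 3029 dSC cells. The study named its chromatin clusters partly from the RNA names of such cells, so that the second name is not independent of the first. The chromatin clusters held no diplotene population. Cells named dSC from RNA were named pSC from chromatin in 1325 cases (43.7%), Lep_Zyo2 (leptotene, zygotene and early pachytene) in 748 (24.7%), rST (round spermatid) in 602 (19.9%, Clopper-Pearson 95% interval 18.5 to 21.3%, for counting error only) and Lep_Zyo1 (the earlier leptotene and zygotene population) in 274. Cells named pSC were named pSC again in 3292 cases (72.8%), Lep_Zyo2 in 610 (13.5%), Lep_Zyo1 in 373 (8.25%) and rST in 175 (3.87%, interval 3.33 to 4.47%). The rST share was higher in dSC within both libraries that held cells of that name in each population, 30.1% against 3.54% in Cre/+ and 11.8% against 4.07% at 25 dpp. Without cells whose RNA barcode was also in another library, it was 15.7% of 2549 dSC cells and 4.11% of 3405 pSC cells, with 24.0% against 5.86% in Cre/+ and 11.7% against 4.03% at 25 dpp. At 17 dpp none of 54 pSC cells was named rST, and at 17 and 11 dpp no dSC cell was (0 of 84 and 0 of 39, where 3 cells, taken as the limit that a count of 0 allows, would be 3.57% and 7.69%, and the exact upper bounds are 4.30% and 9.03%), and 76.2% and 82.1% were named Lep_Zyo2.

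**Figure D1:**
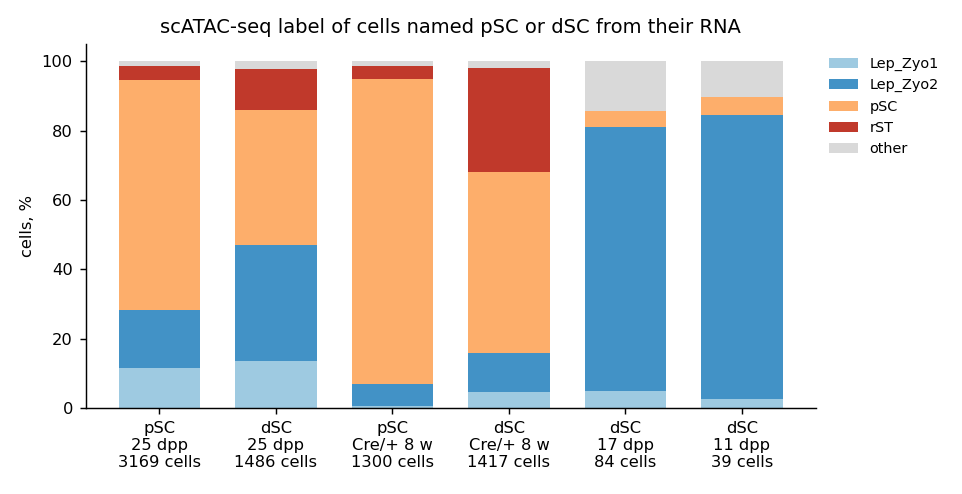
Bars give the percent of cells with each chromatin name, for cells named pSC or dSC from their RNA, by library, with the number of cells under each bar. The rST part of the bar reaches 30.1% for dSC in Cre/+ and 11.8% at 25 dpp, and is below 5% in both pSC bars, while dSC cells of 17 and 11 dpp are mostly Lep_Zyo2.

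RNA of 750 genes rose (5.42% of 13845) and of 28 fell (0.202%). The median log2 ratio of all genes was 0.07, with the central 90% between -0.49 and 1.03. Of the genes that rose, 586 (78.1%) had their highest level in rST among the 7 germ cell populations that did not enter the ratio, and 140 (18.7%) in eST, the elongating spermatids. For all tested genes these shares were 22.7% and 16.5%. Genes that rose had median levels of 0.162 in pSC, 0.548 in dSC and 1.67 in rST. Protein-coding genes made up 76.4% of those that rose, 86.9% of all tested and 35.7% of those that fell.

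The name of the dSC population was checked against markers of diplotene and the onset of division. None of 11 such genes rose or fell, against 5.42% and 0.202% of all genes. Their median log2 ratio was 0.04, against 0.07 for all genes, and 6 of the 11 were above their pSC level, against 57.1% of all tested genes. Their summed level was 7.76 UMIs per 10000 in pSC and 6.39 in dSC. Much of that difference came from Cks2, a CDK subunit, which had 2.21 and 1.12. Cdc25c, Plk1 and Ccnb1, with levels given further on, were higher in dSC. Cdk1, the kinase that drives entry into division, had 0.864 in pSC and 0.609 in dSC. Ccna1, the cyclin A of male meiosis, had 0.301 and 0.436. Its dSC level was the highest of the 9 germ cell populations, 1.34-fold above the next after 0.1 was added. Aurka, a spindle kinase, had 0.572 and 0.474. By contrast 9 of 14 round spermatid markers and 11 of 12 elongating spermatid markers rose (64.3 and 91.7%, against 5.42% of all genes), with medians of 1.15 and 1.49. With 1 added in place of 0.1, these medians were 0.374 and 0.759. Of 11 mid pachytene markers 2 rose (18.2%), Spag6 and Pgk2, and 2 fell (18.2%, against 0.202% of all genes), H2afx and Piwil1, with a median of -0.47 and sums of 54.4 in pSC and 37.2 in dSC. The round spermatid markers summed to 4.80 in pSC, 11.4 in dSC and 32.4 in rST. As a group, the diplotene markers thus do not set dSC apart from pSC, with members on either side of their pSC level. Most spermatid markers rose, and mid pachytene markers went both ways. The deposited names are used throughout.

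Of genes of the sperm nucleus, 10 of 17 tested members rose (58.8%, against 5.42% of all genes) and none fell (0.202% of all genes), with a median of 1.08, or 0.284 when every gene above 0 was kept. Prm1, which encodes a protamine that packs sperm DNA, had 0.135 UMIs per 10000 in Lep_Zygo2 (leptotene, zygotene and early pachytene), 1.13 in pSC, 4.11 in dSC, 10.3 in rST and 40.8 in eST, a log2 ratio of 1.78. Tnp1, a transition protein that replaces histones before the protamines, went from 0.508 in pSC to 1.71 in dSC, 4.37 in rST and 18.5 in eST (log2 ratio 1.57). Both climbed at each step from pSC on. Tnp2, a further transition protein, rose from 1.38 to 4.16 and Prm2 from 0.441 to 1.47. Tnp2, Prm3, Prm2 and Prm1 lie side by side on chr16:10787935-10796823. Sun5, which fixes the sperm head to the tail, rose from 0.280 to 1.19 and had 4.10 in rST and 1.97 in eST. Hspa1l, a spermatid chaperone, rose from 0.193 to 0.674.

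Acrosome genes followed, with 14 of 34 tested members rising (41.2%, against 5.42% of all genes), none falling and a median of 0.64. That median was 0.345 at a mean level of 0.2 or more, and 0.199 with 1 added in place of 0.1. Acrv1 rose from 0.580 to 2.04 (log2 ratio 1.66), with 7.19 in rST and 2.56 in eST, so that its peak lay in rST. Spaca3, a sperm acrosome membrane protein, rose from 0.297 to 0.932, and Spaca6, required for sperm to fuse with the egg, from 0.268 to 0.846. Izumo1, the sperm protein that binds the egg receptor, rose from 0.25 to 0.725. Pdilt, a testis chaperone of the endoplasmic reticulum needed to mature sperm surface proteins, rose from 0.209 to 0.681. The summed level of the list did not follow its median, with 53.1 in pSC, 52.3 in dSC and 63.4 in rST.

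Of genes for the outer tail sheaths and for sperm energy, 12 of 29 rose (41.4%, against 5.42% of all genes) and none fell. Their median was 0.57, or 0.341 when every gene above 0 was kept, and 0.199 with 1 added in place of 0.1. Their sum was 49.3 in pSC and 52.2 in dSC. Gapdhs, the sperm form of a glycolytic enzyme, rose from 0.419 to 1.55 and reached 4.44 in rST. Odf1, a protein of the outer dense fibers, rose from 0.689 to 2.10 and had 16.0 in eST. Akap4, the main protein of the fibrous sheath and X-linked, rose from 0.271 to 0.981. Pgk2, the testis form of phosphoglycerate kinase, rose from 0.357 to 1.15, and Smcp, a mitochondrial capsule protein, from 0.708 to 2.05. Of the axoneme, the microtubule core of the tail, 2 of 54 genes rose (3.70%, near the 5.42% of all genes) and none fell, with a median of 0.12. These were Dnah3, an axonemal dynein heavy chain (0.373 to 1.62, and 5.05 in rST), and Spag6, a protein of the central pair (0.262 to 1.01, and 3.47 in rST).

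**Figure D2:**
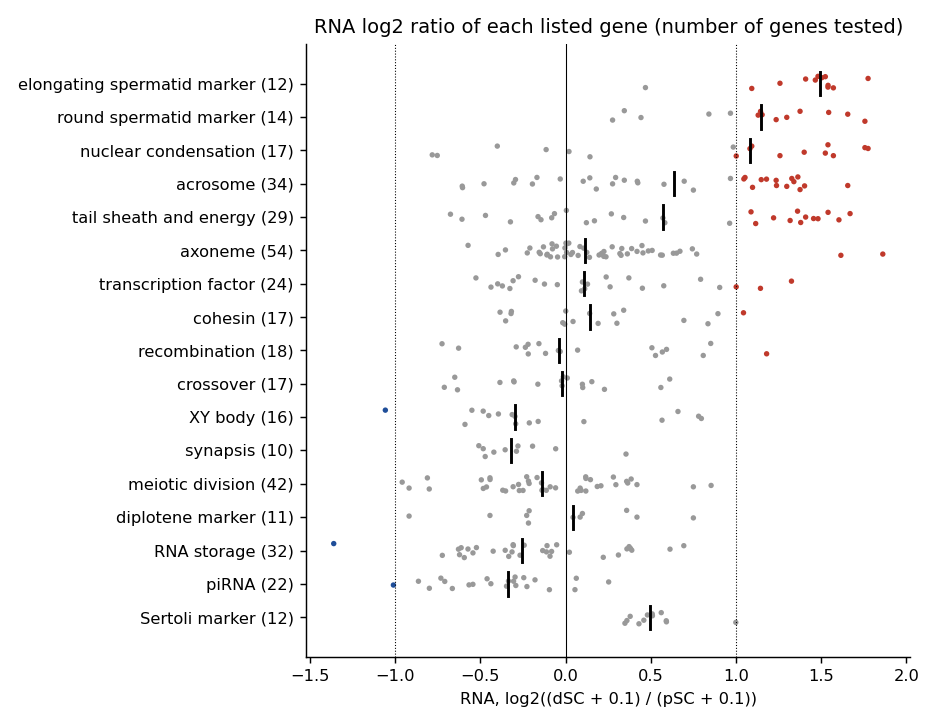
Each point is the RNA log2 ratio of 1 gene, dSC over pSC with 0.1 added to both levels, grouped by list, with red for genes that rose, blue for genes that fell, black bars for list medians and dotted lines at 2-fold. The spermatid lists lie to the right, up to a median of 1.49 for elongating spermatid markers, and the medians of the synapsis, piRNA and RNA storage lists lie to the left of 0.

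Among 24 transcription factors of spermatogenesis, 3 rose (12.5%, against 5.42% of all genes) and none fell. Fhl5, a partner of CREM, rose from 0.133 to 0.484, Spz1, a testis zipper protein, from 0.185 to 0.531, and Sox5, an HMG-box factor, from 0.465 to 1.03. Crem itself, an activator of postmeiotic genes, had 1.69 in pSC, 2.05 in dSC and 3.8 in rST, and did not reach 2-fold. Rfx2, a regulator of ciliary genes, had 3.13 and 2.75, and Mybl1, which encodes A-MYB, the main activator of pachytene genes, had 1.51 and 1.19. No NF-Y subunit gene reached 2-fold, with 0.601 and 0.647 for Nfya, 0.328 and 0.215 for Nfyb, and 0.820 and 0.795 for Nfyc. Tcfl5, a helix-loop-helix factor of pachytene, had 2.64 and 1.80.

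The largest ratios belonged to 2 loci. Of 30 genes at least 4-fold higher in dSC, 9 were the Ugt1a rows on chromosome 1, isoforms of a UDP-glucuronosyltransferase that share their 3′ exons, and 21 were Pcdhg rows on chromosome 18, protocadherins built the same way. Reads in shared exons cannot be assigned to 1 row, so each group may be 1 signal counted many times, and 720 genes rose without them. Ugt1a rows had 0.020 to 0.031 in pSC, 1.76 to 2.14 in dSC and 0.0051 to 0.012 in rST, and 2.20 to 2.35 in soma_CKO. As given above, 503 dSC and 1110 pSC cells of Cre/+ shared their barcode with a soma_CKO cell, and the part of these cells in the Ugt1a values was not tested. Among the 9 germ cell populations from spermatogonia to eST, the dSC level of every Ugt1a row was over 11-fold above that of the next, and no other gene with a mean of at least 0.2 reached 2-fold. The germ cells of Nfya-CKO named SPG_undiff_CKO, outside those 9, had 0.390 to 0.450 for Ugt1a rows. Pcdhg rows had 0.199 to 0.367 in pSC, 3.94 to 5.92 in dSC and 7.2 to 8.45 in rST, the highest of the 9 germ cell populations, with 2.24 to 3.0 in differentiating spermatogonia and 2.11 to 2.77 in Sertoli cells. Outside these rows the highest ratios were 1.99 for AC122551.1, an unnamed transcript (0.219 to 1.17), 1.88 for Gm8251, a predicted gene (0.192 to 0.978), and 1.87 for Iqcf3, an IQ-motif gene (0.355 to 1.56).

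Genes of the meiotic machinery mostly stayed within 2-fold, as did most of all tested genes. Synapsis genes had 10 tested members, with a median of -0.32. None of them rose or fell, against 5.42% and 0.202% of all genes. Sycp3, a protein of the chromosome axis, had 2.81 in Lep_Zygo2, 3.82 in pSC and 2.73 in dSC, and Sycp1, the transverse filament of the synaptonemal complex, had 25.3, 16.6 and 13. Hormad1, which marks unsynapsed axes, had 3.33 in pSC and 2.36 in dSC. Only Syce2, of the central element, was above its pSC level, at 0.726 and 0.956. Of 42 genes of the meiotic divisions none rose or fell, against 5.42% and 0.202% of all genes, with a median of -0.14. Hspa2, a chaperone needed for CDK1 activity at the end of prophase, had 7.43 in pSC and 3.77 in dSC, just short of 2-fold. Cks2, a CDK subunit, had 2.21 and 1.12, and Cdc20, an activator of the anaphase complex, had 2.13 and 1.18. Plk1, a kinase of division onset, had 0.092 and 0.146, and Cdc25c, the phosphatase that activates CDK1, had 0.116 and 0.263, while Ccnb1, a mitotic cyclin, had 0.260 and 0.282.

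Of 17 crossover genes none rose or fell (median -0.02), against 5.42% and 0.202% of all genes. Cntd1, a cyclin-like crossover factor, had 3.29 and 1.97, and Mlh3, of the crossover nuclease, had 1.68 and 1.05. Recombination genes had 1 of 18 rising (5.56%, near the 5.42% of all genes, median -0.04). Tex15, needed for repair of meiotic breaks, rose from 2.86 to 6.60, after 12.1 in Lep_Zygo2 and before 6.05 in rST. Dmc1, the meiotic recombinase, had 1.88 in Lep_Zygo2, 0.508 in pSC and 0.998 in dSC, and Prdm9, which sets recombination sites, had 1.22, 0.224 and 0.467. Both stood higher in dSC than in pSC and rST, without reaching 2-fold over pSC once 0.1 was added to both levels. The other 10 of the 18 were not above their pSC level, such as Mcmdc2, an MCM-domain protein of meiotic recombination (0.846 and 0.473), and Psmc3ip, a partner of DMC1 (1.20 and 0.742). Rec8, the meiotic cohesin, was the only 1 of 17 cohesin genes to rise (0.138 to 0.390, with 1.11 in rST), a share of 5.88% that is also near that of all genes. Beside these values stand the 24.7% of dSC cells and 13.5% of pSC cells with the Lep_Zyo2 chromatin name, whose part in them was not tested.

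Markers of other cells were present in both columns, and no listed marker was at 0 in either. All 12 tested Sertoli markers were higher in dSC (median 0.49), their sum was 5.40 in pSC and 9.0 in dSC, which is 3.75% and 6.24% of the sum in Sertoli cells, and none reached 2-fold. Clu, a secreted chaperone abundant in Sertoli cells, came closest, with 1.55 and 3.20. Spermatogonial markers had a median of 0.40 over 13 genes and sums of 3.81 and 4.11, which is 12.6% and 13.6% of the sum in undifferentiated spermatogonia. Early prophase markers had a median of 0.58 over 12 genes, but a sum that went from 29.4 to 24.4. These sums are not low, at 88.0% and 73.3% of that in Lep_Zygo1, the earlier leptotene and zygotene population. Of 4 tested Leydig markers 1 rose (25%, against 5.42% of all genes), Insl3, a hormone of Leydig cells, from 0.174 to 0.486, and none of 5 other somatic markers did. Of 699 genes in the mitosis list of the study, 5 rose (0.715%, below the 5.42% of all genes) and none fell, with a median of 0.32. In pooled values, more cells of another kind within dSC and more RNA per cell cannot be told apart.

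Among the 7 germ cell populations that did not enter the ratio, 21 of the 28 genes that fell (75%) were highest in Lep_Zygo2, against 14.6% of all tested genes. Another 5 (17.9%) were highest in eST, against 16.5%. Median levels of the 28 genes were 5.16 in pSC, 2.33 in dSC and 0.982 in rST. Adad2, which encodes a double-stranded RNA-binding protein of spermatocyte RNA granules, had 1.29 in Lep_Zygo2, 3.45 in pSC, 1.28 in dSC and 0.450 in rST, a log2 ratio of -1.36 and the lowest of all. Tuba3b fell from 8.36 to 3.67 and Tuba3a from 5.58 to 2.45, and as near-identical copies, whose upstream windows are shown above, they may share reads. Piwil1, the PIWI protein that binds pachytene piRNAs, fell from 11.4 to 5.6. H2afx, the histone variant phosphorylated over the XY body, fell from 2.86 to 1.32, and Tesmin, a testis metal-binding factor, from 7.78 to 3.82. Gstt2, a glutathione transferase, fell from 6.35 to 2.86, and Cers3, a ceramide synthase, from 3.74 to 1.79.

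Pachytene piRNA precursors made up much of the remainder. The matrix holds 100 rows named by chromosome band as piRNA-producing loci, a group that was picked after values had been seen. Rows with piRNA names of another form were not part of it. Of these, pi-Il17rd.1, pi-Lpp.1 and pi-PC-Arhgap20 were higher in dSC than in pSC, and the rest were not counted. The values that follow are for the band-named rows only. Of the 100, 13 fell (13%, against 0.202% of all genes), 1 rose (1.0%, against 5.42%), and 96 were below their pSC level, with a median of -0.59. They summed to 215 UMIs per 10000 in Lep_Zygo2, 437 in pSC, 261 in dSC, 110 in rST and 102 in eST, and 96 of them were highest in pSC of 9 germ cell populations. Among the 13, levels in pSC and dSC were 13.5 and 5.99 in 1 row on band qG3 of chromosome 5, and 6.69 and 2.87 in another on band qA3.3 of chromosome 17. The row that rose went from 0.138 to 0.527 and had 1.78 in rST. 1700008K24Rik, counted above among other names, fell from 10.6 to 4.99 and had nearly the values of a piRNA-locus row (10.6 and 4.99), so that both may count the same transcript. Of 22 genes for piRNA factors only Piwil1 fell (4.55%, against 0.202% of all genes) and none rose (median -0.34). Tdrd1, a scaffold of piRNA granules, had 5.01 and 2.71, and Tdrd5, a further Tudor protein, had 2.55 and 1.42. Genes of RNA storage had 1 of 32 falling, Adad2 (3.12%, against 0.202% of all genes), none rising, and a median of -0.25.

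Housekeeping groups had medians on either side of 0. None of 79 ribosomal protein genes and none of 92 nuclear oxidative phosphorylation genes rose or fell, against 5.42% and 0.202% of all genes. Their medians were -0.30 and -0.28. The 7 tested genes of the mitochondrial genome were all above 0, with a median of 0.16, and none reached 2-fold. Chaperones had 1 of 20 rising, Dnajc5b, a cysteine string protein (0.175 to 0.679), and a median of -0.26. Ubiquitin genes of the testis had 1 of 20 rising, Klhl10, a cullin adaptor of spermatids (0.222 to 0.693), and a median of 0.12. Both shares, 5.0%, are near the 5.42% of all genes.

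At the thresholds, 4933402J10Rik (0.429 to 0.958) and Gm46329 (0.0653 to 0.231) lay just inside the genes that rose, and Tssk4, a testis-specific kinase gene (0.123 to 0.346), and Clu just outside. In the other direction Tesmin lay just inside and Mir17hg, the host gene of a miRNA cluster, just outside (1.38 to 0.642).

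X-linked RNA was higher in dSC for most of the genes that could be compared. Of 993 X-linked genes 380 were tested, of which 372 were above their pSC level. Their median log2 ratio was 0.49, or 0.151 when every gene above 0 was kept, 16 rose (4.21%) and none fell, while autosomal genes had a median of 0.06 with 7409 of 13146 above 0, and medians of single autosomes ran from 0.01 to 0.13. The share that rose was thus below the 5.42% of all genes, although the median was higher. Akap4 had the highest ratio (1.54), followed by 1700080O16Rik (0.144 to 0.497, 1.29) and Upf3b, a factor of nonsense-mediated decay (0.237 to 0.716, 1.28). Atrx, a chromatin remodeler, rose from 0.410 to 0.985. Ndufa1, a subunit of complex I, had the lowest, with 0.825 and 0.630. At levels of 0.2 to 0.5, 99 of 99 X-linked genes were above 0, with a median of 0.70 against 0.05 for autosomal genes. At 0.05 to 0.1, where the added 0.1 holds ratios near 0 the most, the medians were 0.35 and 0.24.

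As a share of nuclear RNA the X chromosome gave 2.28% in undifferentiated spermatogonia, 2.51% in preleptotene, 1.57% in Lep_Zygo2, 0.572% in pSC, 1.07% in dSC, 1.26% in rST and 1.78% in eST. The pSC share was the lowest of the 9 germ cell populations, and that of dSC lay between those of pSC and rST. In 212 of 380 X-linked genes (55.8%) dSC was above both pSC and rST, against 26.1% of all tested genes. Cells of other kinds had larger X shares, such as 3.38% in Sertoli cells and the 1.57% of Lep_Zygo2. Higher in dSC were 12 of 12 Sertoli markers, 10 of 13 spermatogonial markers and 7 of 12 early prophase markers, against 57.1% of all tested genes. The early prophase count is near that share, and the early prophase sum was lower, as given above. The part of such cells in the X-linked values was not tested. Of the XY body factors, H2afx was the only 1 of 16 genes to fall (6.25%, against 0.202% of all genes) and none rose (median -0.29), and Mdc1, which spreads the H2AX mark, had 3.17 and 2.24. Of 221 Y-linked genes in the RNA matrix 10 were tested, of which 1 rose (10%, against 5.42% of all genes), with a median of 0.64.

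**Figure D3:**
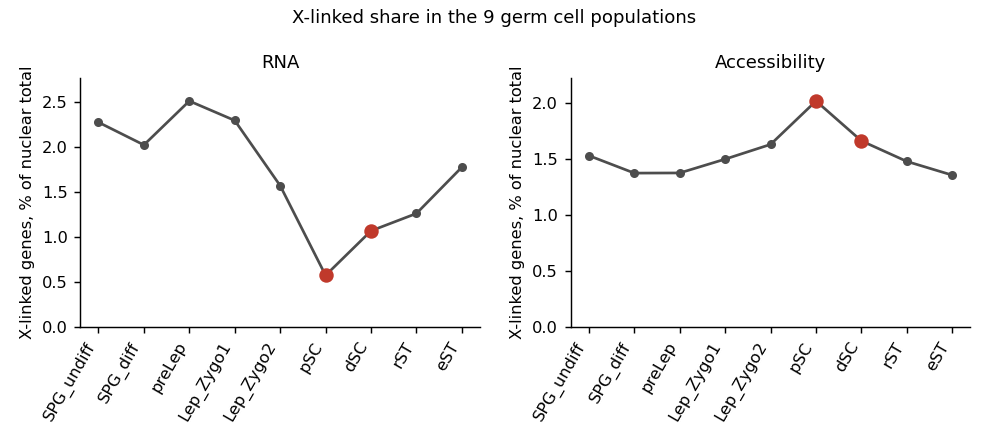
Points give the X-linked share of all nuclear RNA (left) and of all nuclear accessibility signal (right), in percent, in 9 germ cell populations in developmental order, with pSC and dSC in red. The RNA share is lowest in pSC (0.572%) and the accessibility share is highest there (2.01%), and dSC lies between Lep_Zygo2 and pSC in the left panel and at 1.66% in the right.

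Accessibility was scaled to 1000000 per population over all genes, and dSC and pSC were compared after 1 was added to both. On that scale 6543 nuclear genes were at least 1.5-fold more accessible in dSC (21.4%) and 22 less (0.0719%), and the median gene was 0.37 higher on the log2 scale, or 1.29-fold. The 13 genes of the mitochondrial genome took 60.3% of the signal in pSC and 48.6% in dSC, and with the scale set on nuclear genes alone the median was 0.07. Differences are therefore given relative to the median of nuclear genes. Relative to it, 990 genes were at least 1.5-fold more accessible (3.23%) and 524 less (1.71%). Of the 990, rST had the highest accessibility in 681 (68.8%) among the 7 germ cell populations outside the ratio, against 31.3% of all genes.

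Among genes with a mean accessibility of 10 or more, Grk3, a kinase of G-protein-coupled receptors, was the most accessible in dSC relative to pSC. Its signal was 5.15 in pSC, 15.7 in dSC and 15.2 in rST, on the scale of 1000000 per population (a log2 ratio 1.07 above the nuclear median). Its RNA was 0.310 and 0.546 and did not rise. Hils1 went from 5.55 to 15.6 and to 46.0 in rST, and its RNA rose from 0.150 to 0.432. Odf1 went from 7.10 to 18.4, Lrrc74a, a leucine-rich repeat gene, from 5.93 to 16.3, and Tmem190, a sperm membrane protein gene, from 5.66 to 15.1, each with RNA that rose as well. At the other end, given a mean accessibility of 10 or more, were Gdpd2, a glycerophosphodiesterase (11.9 to 8.38), 4921511I17Rik (13.9 to 10.4), Zim1, an imprinted zinc finger gene (21.6 to 16.4), Hs6st2, a heparan sulfate sulfotransferase (14.9 to 11.4), and Elk1, an ETS factor (16.5 to 12.7). Of the 10 lowest such genes 3 were X-linked, Gdpd2, Hs6st2 and Elk1. The 22 genes at least 1.5-fold less accessible before centring all had means below 10.

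Less accessible genes were often X-linked. Of the 524, 205 were among the 1057 X-linked genes, 51 among 426 Y-linked genes and 263 among 28549 autosomal genes, whereas none of the 990 was X-linked or Y-linked. The Y-linked median was 0.38 below that of nuclear genes, with 24 of 426 above it. The X-linked median was 0.34 below that of nuclear genes, and 84 lay above it, whereas autosomes had medians from 0.35 to 0.41 before that median was taken off. The X share of nuclear accessibility was 1.63% in Lep_Zygo2, 2.01% in pSC, 1.66% in dSC and 1.47% in rST. The direction of the X-linked median depends on the scale, since before centring it was 0.0265. Relative to nuclear genes, X-linked accessibility was lower in dSC while X-linked RNA was higher, and from Lep_Zygo2 to pSC both differed the other way, where the RNA median was -0.75 and the accessibility median 0.50 on the nuclear scale. Scml2, a Polycomb protein of the XY body, had RNA of 0.605 and 1.11 and accessibility of 4.24 and 3.17.

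RNA and accessibility were then set side by side over the 13834 genes measured in both. Genes whose RNA rose had a median accessibility 0.30 above that of nuclear genes, 615 of 750 (82.0%) were above it, and 161 (21.5%) were at least 1.5-fold above. Genes whose RNA fell had a median 0.24 below, with 5 of 28 above. Genes with neither had a median of -0.01, with 47.1% above and 2.08% at least 1.5-fold above. Over all genes Pearson's r was 0.34 and Spearman's rho 0.266, a description only, since all points come from the same pools of cells and genes are not independent. Acrv1 went from 4.03 to 11.6 and to 32.5 in rST, and Dnah3 from 4.28 to 11.4 and to 30.7. Prm1 was less marked, from 2.35 to 3.79, and Spag6, at 13.6 and 16.7, lay 0.09 below the nuclear median although its RNA rose. On the scale that includes mitochondrial genes, accessibility of fallen genes had medians of 29.3 in pSC, 32.2 in dSC and 34.1 in rST. Scaled without mitochondrial genes, their median log2 ratio was -0.24. Of the fallen genes, H2afx and Piwil1 lay above the nuclear median (0.14 and 0.26). Starting from chromatin, 432 of the 990 more accessible genes had tested RNA. Of these 161 rose (37.3%, against 5.42% of all tested genes), none fell (0.202% of all) and 406 were above 0 (57.1% of all). Of the 524 less accessible, 72 had tested RNA and 3 rose, a share near the 5.42% of all tested genes: Gm40658, Tex16 and Slc17a6.

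**Figure D4:**
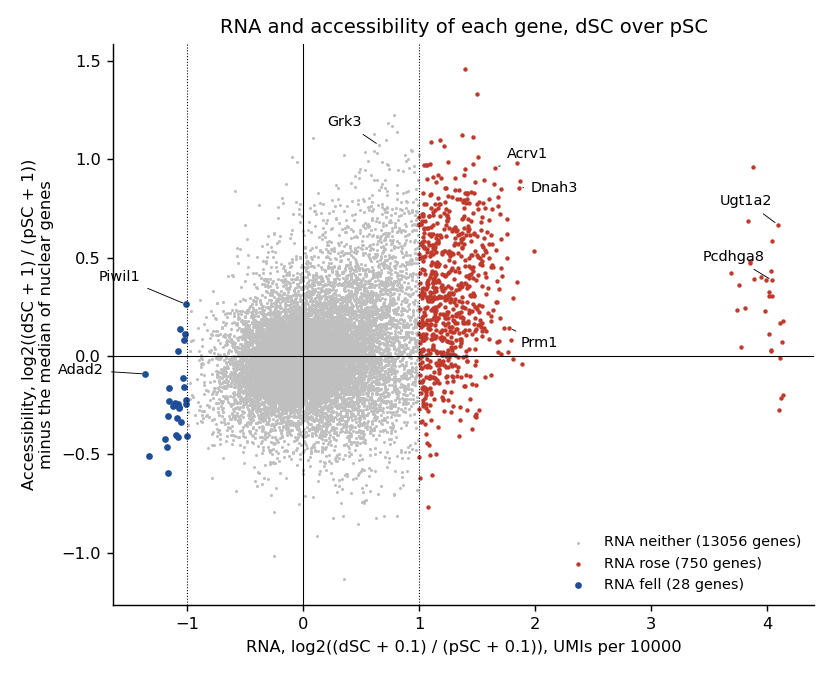
Each point is 1 gene, with the RNA log2 ratio dSC over pSC on the x axis and the accessibility log2 ratio relative to the median of nuclear genes on the y axis, in red where RNA rose, blue where it fell and grey otherwise. Of the red points 82.0% lie above 0 and of the blue points 5 of 28, and the red points near an RNA ratio of 4 are the Ugt1a and Pcdhg rows.

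Finally the dSC level was placed between pSC and rST. Genes were picked only by the rST and pSC values, so that the place of dSC was free to vary. For 1130 genes with RNA at least 4-fold higher in rST, dSC lay a median of 23.2% of the way from pSC to rST, with the central 50% of genes between 20.3 and 26.2%, and all of them lay between both. For 1288 genes at least 2-fold more accessible in rST, on the nuclear scale, the median was 26.2%, with quartiles of 19.3 and 34.2%. In RNA, Acrv1 lay at 22.1%, Sun5 at 23.7%, Spag6 at 23.3% and Dnah3 at 26.6%, whereas Prm1 at 32.6% and Odf1 at 35.2% lay beyond most of these genes. In accessibility, Acrv1 lay at 28.2%, Sun5 at 25.1%, Dnah3 at 27.9%, Prm1 at 19.9% and Odf1 at 29.3%. Spag6, which was less than 2-fold more accessible in rST, lay at -28.2%, outside the range between pSC and rST. Genes lower in rST had medians of 55.5% over 51 genes for RNA and 58.9% over 67 genes for accessibility. The way is measured on a linear scale, on which equal fold steps give a smaller percent for genes higher in rST than for genes lower in rST, so that these 2 directions cannot be compared. Piwil1 lay at 65.6%, Adad2 at 72.3% and Hspa2 at 76.4% in RNA. The share of dSC cells with the round spermatid chromatin name (19.9%, or 15.7% without shared barcodes, against 3.87% of pSC cells) and the round spermatid marker sum (14.8% of its rST value in pSC and 35.4% in dSC) stand beside these places, and their part in them was not tested.

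**Figure D5:**
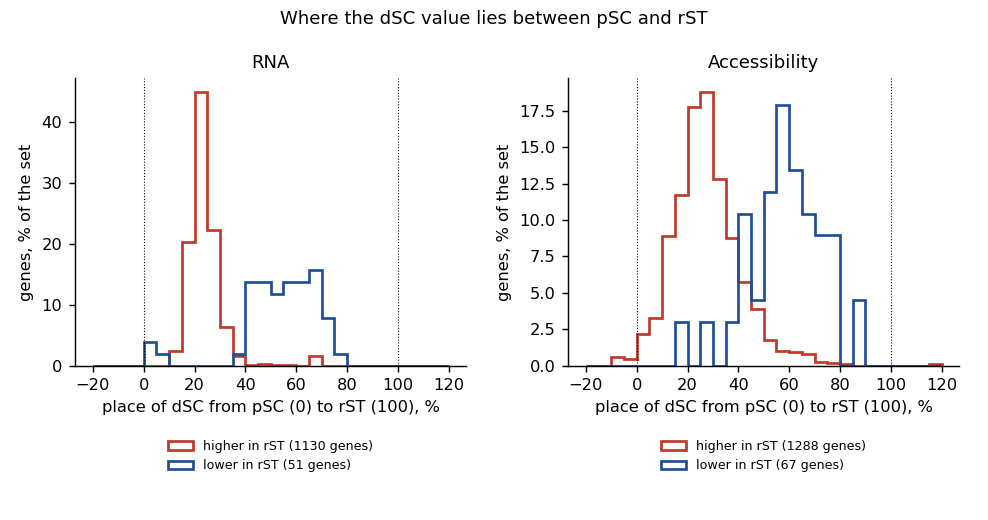
Histograms give where the dSC value lies on the way from pSC (0%) to rST (100%), in percent of genes, for RNA (left, genes at least 4-fold apart) and accessibility (right, at least 2-fold apart on the nuclear scale), in red for genes higher in rST and blue for genes lower in rST. The red peaks lie at medians of 23.2% and 26.2% and the blue ones at 55.5% and 58.9%, and the small red group near 65 to 70% in RNA holds most of the Pcdhg rows.

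Of the 750 genes that rose, 20 (2.67%) had more RNA in dSC than in rST, while 26.1% of all tested genes were above both pSC and rST. Of the 20, 9 were Ugt1a rows. Others were Tex15, Atrx, Thoc2, an mRNA export factor (0.941 to 2.02, and 1.66 in rST), and Ggn, a spermatid protein (1.57 to 3.33, and 3.15 in rST). All 28 genes that fell lay between pSC and rST, and of all tested genes 4.29% lay below both. These shares describe genes that were chosen by the same dSC values.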

How the data were processed

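Simultaneous scRNA-seq and scATAC-seq of testis nuclei gave 5 libraries per assay, 1 per age and genotype. For RNA, the authors aligned reads to mm10 with STAR 2.7.10b, collapsed UMIs, filtered and clustered cells with Seurat 5.2.1, removed doublets with DoubletFinder and named clusters by marker genes. For chromatin, the authors aligned with BWA 0.7.12, shifted the ends for the transposase, handled intervals with bedtools 2.27.1, and filtered cells and doublets with ArchR 1.0.3 (versions as in the submitters' processing notes). The authors deposited UMI and fragment counts per cell without normalization, the percent of mitochondrial UMIs, the fraction of reads in promoters, and the ratios of TSS enrichment and of nucleosomal to shorter fragments. They also deposited 2 gene matrices on a natural log scale, each the log of 1 plus a pooled mean per population. That scale was read from the values, which sum to 10000 per population once turned back. The study's methods define promoter accessibility as mean coverage close to the start site, but whether the chromatin matrix counts that region is not given in the sources used here. A further 18 columns of the cell tables were not used.

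RNA was compared as log2((dSC + 0.1)/(pSC + 0.1)) in UMIs per 10000 for genes whose mean was 0.05 or more, and called at 2-fold. Accessibility was rescaled to 1000000 per population, compared after adding 1 and called at 1.5-fold. No p-value was computed, since each population is 1 pooled column, and the design had planned none. The scripts, run with Python 3.11.15, numpy 2.4.6, pandas 2.3.3, scipy 1.17.1 and matplotlib 3.10.9, were tested on simulated data. Intervals of shares are exact Clopper-Pearson 95% intervals and cover counting error only. The members and gene lists were chosen with earlier results of these data known. Named genes were the 10 largest ratios per direction, given a mean RNA level of 0.2 UMIs per 10000 or a mean accessibility of 10 or more, up to 6 members of each list by size, and listed defining genes. The genes placed between pSC and rST were chosen after seeing the data, as were the piRNA-locus rows, the genes shown outside the Ugt1a and Pcdhg rows, Atrx, Thoc2, Ggn, Tex16, Gm40658 and Slc17a6. Sequences are those of RefSeq promoters, which matched 10459 of 13845 tested genes (75.5%). As fewer than 80% matched, motif shares of the gene groups are not given. The comparison without shared barcodes was also added after seeing the data. Alternatives changed the pseudocount, filter, scale, fold and cell filters.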

Additional observations from a re-analysis of the deposited data

Results flagged for a closer look

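The contrast of dSC with pSC could be made within both libraries that hold most of the cells, 25 dpp and Cre/+, for quality measures of the cells. It went in opposite directions in 2 of them. The median percent of mitochondrial UMIs in dSC minus that in pSC was -0.217 in Cre/+ and 0.0636 at 25 dpp. The median nucleosome ratio, the ratio of nucleosomal to shorter fragments, differed by 0.0822 in Cre/+ and by -0.016 at 25 dpp. These differences between libraries were not tested, since each library is 1 sample. The other measures had the same direction in both libraries. Median TSS enrichment was 13.3 in pSC and 9.08 in dSC of Cre/+, and 12.2 and 11.9 at 25 dpp.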

How the results depend on the processing

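Over 324 alternatives for 64 results, 206 kept within the spread allowed and 118 moved, and none changed sign beyond the threshold for a call. Genes whose RNA rose numbered 750, but 2063 with a pseudocount of 0.01, 39 with 1, 2239 at 1.5-fold and 30 at 4-fold. Genes that fell numbered 28, but 62, 3, 373 and 0 under the same settings, and 15 without the piRNA-locus rows. More accessible genes numbered 6543, but 10208 with a pseudocount of 0.1, 938 with 5, 2798 when scaled without mitochondrial genes, 990 when centred on the median of nuclear genes, 1145 with a mean of at least 10, 17792 at a looser fold and 768 at 2-fold. Less accessible genes numbered 22, but 283, 0, 460, 524, 0, 236 and 0 in the same order. Median RNA log2 ratios with a pseudocount of 0.01 were 1.2 for acrosome genes and 1.58 for nuclear condensation genes, against 0.199 and 0.258 with 1. With no filter they were 0.501 and 0.284, and with a mean of at least 0.2 they were 0.345 and 1.18. For X-linked RNA they were 0.814 and 0.1 with pseudocounts of 0.01 and 1, 0.721 with a mean of at least 0.2, 0.151 with no filter and 0.419 centred. For X-linked accessibility the median of 0.0265 turned to -0.303 scaled without mitochondrial genes, -0.344 centred, and was 0.163 with a mean of at least 10. For piRNA loci the RNA median was -0.433 with a pseudocount of 1 and -0.668 centred. Accessibility of genes whose RNA rose was 0.771 and 0.439 with pseudocounts of 0.1 and 5, 0.384 scaled without mitochondrial genes, 0.297 centred and 0.535 with a mean of at least 10, and that of genes whose RNA fell was -0.24 scaled so and -0.244 centred. Of 26 accessibility medians of gene groups, 12 were below 0 when centred or scaled without mitochondrial genes. The share of dSC cells with the round spermatid chromatin name, 19.9%, was 15.7% without cells whose barcode was in another library. The median of diplotene markers in RNA changed sign, to -0.214 with a mean of at least 0.2 and -0.0299 centred. The cause of these shifts was not tested.

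No paired analysis was possible because the gene matrices pool the libraries and the results come from no test. No library was left out, since the matrices pool them. Shares of motifs among groups of genes were not run, as too few genes had a promoter sequence. At a mean of 0.05 a value rests on about 99.4 UMIs in dSC, so that ratios of weakly expressed genes are the least certain.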
